A study of Mus musculus with 15 samples.

Results

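Kruppel-like factors (KLFs) are transcription factors that bind GC-rich and CACCC-type elements through zinc fingers at their carboxyl end. The 10 members described here were Klf2, Klf3, Klf4, Klf5, Klf6, Klf7, Klf9, Klf10, Klf13 and Klf15, chosen by the gene symbol that the deposited expression table gives to each probe. They were 10 of the 15059 gene symbols of that table and were read by 11 of its 20855 gene probes, as Klf13 had 2 probes. The RNA was that of cumulus cells, which enclose the oocyte within the ovarian follicle, from B6CBAF1/J mice at 3 stages with 5 arrays each. NC1 cells came from unexpanded complexes punctured out of the ovary of 3-week-old juvenile mice, with prophase I oocytes that were developmentally incompetent. At C1 the complexes were also unexpanded but the donors were 8-week-old adults, with developmentally competent prophase I oocytes. C2 cells came from expanded complexes flushed from the oviducts of 8-week-old adults that had received PMSG and hCG for superovulation, with competent oocytes arrested in metaphase II. Oocytes were removed by gentle pipetting at NC1 and C1, and with hyaluronidase at 300 µg/ml for a few seconds at C2. Each array held cells pooled from several mice per the study's methods. Age and stage cannot be told apart between NC1 and C1, nor can hormone treatment, site of collection, enzyme and stage between C1 and C2.

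KLFs are usually placed in groups by the partners they bind. Klf3 belongs to the group that recruits the corepressor CtBP, while Klf2, Klf4, Klf5, Klf6 and Klf7 belong to a group that acts mainly through activation and binds acetyltransferases. Klf9, Klf10 and Klf13 carry a motif that binds the corepressor Sin3, and Klf15 lies outside these groups. Several KLF genes respond quickly to growth factors, hormones and mechanical stimuli, and in granulosa cells KLFs have been linked to steroid synthesis, cholesterol uptake and exit from the cell cycle.

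Values below are log2 signals of a probe from which the median of its array was subtracted, so that a difference of 1 is a 2-fold change and only values of the same probe can be compared. Probes counted as valid, 17323 in number, if 4 or more of the 5 arrays of every stage showed them well above background, and the median was taken over these. Of the 11 member probes, 9 were valid, for 8 genes. Klf5 and Klf15 were not well above background in part of the arrays and were not fitted. Stages were compared with limma over all valid probes, and a probe was called at a Benjamini-Hochberg adjusted p under 0.01. Because RNA came from a mixture of cells, fewer cells of a type and less RNA per cell cannot be told apart.

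Arrays had between 18366 and 24493 probes well above background, the highest number being in C1 replicate 4. This array stood apart from its stage, since Tnfaip6, a gene of the expanded cumulus matrix, lay at 2.70 there against -3.77 to -2.90 in the other 4 C1 arrays and 3.75 to 4.78 at C2. Calls of members are therefore also given without it. The labelled cell type was checked with 13 cumulus and granulosa markers, including Amhr2, Fshr, Foxl2 and Inha, and the probe of each was valid in all stages. This shows signal above background and not purity. Of the markers of other cells, 6 of 8 for theca and stroma, 5 of 6 for red blood cells and 3 of 10 for oocytes were valid too. So were 7 of 9 for oviduct epithelium, 4 of 7 for leukocytes and 4 of 10 for endothelium. Except for Dazl, the oocyte markers that were not valid failed at C2 only. They were well above background in all NC1 and C1 arrays, as was Zp3 with means of 1.74 and 1.44.

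Between NC1 and C1, none of the 8 valid members was called (0 of 8), where 2.52% of all valid probes were called, 1.75% higher and 0.768% lower. The differences ranged in size from 0.04 for Klf2 to 0.36 for Klf4, with standard errors of 0.14 to 0.32, and adjusted p-values of limma ran from 0.459 for Klf7 to 0.954 for Klf2. At an unadjusted p under 0.05 no member passed either. Values of the 2 stages overlapped for each of the 8 members, where 5.98% of all valid probes had stages that did not overlap. The 95% interval of Klf4 was -0.32 to 1.03 and that of Klf7 was -0.52 to 0.07, so that changes of up to 2-fold in Klf4 were within the interval while Klf7 was bounded more closely.

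Between C1 and C2, 7 of the 8 valid members were called, where 47.6% of all valid probes were called. Expression was higher at C2 for 5 members, Klf13, Klf7, Klf3, Klf6 and Klf2 (25.4% of all valid probes were called higher), and lower for 2 members, Klf4 and Klf9 (22.2% were called lower). Klf10 was not called. The median difference of the 8 members was 0.79, against 0.02 over all valid probes. Stages did not overlap for 5 of the 8 members, where 43.9% of all valid probes did not overlap. Without C1 replicate 4 the same 7 members were called. The same count fell to 4 with scaling by spike-in probes, where Klf2, Klf6 and Klf9 were lost, and it was 4 when a change of at least 2-fold was required as well.

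**Figure D1:**
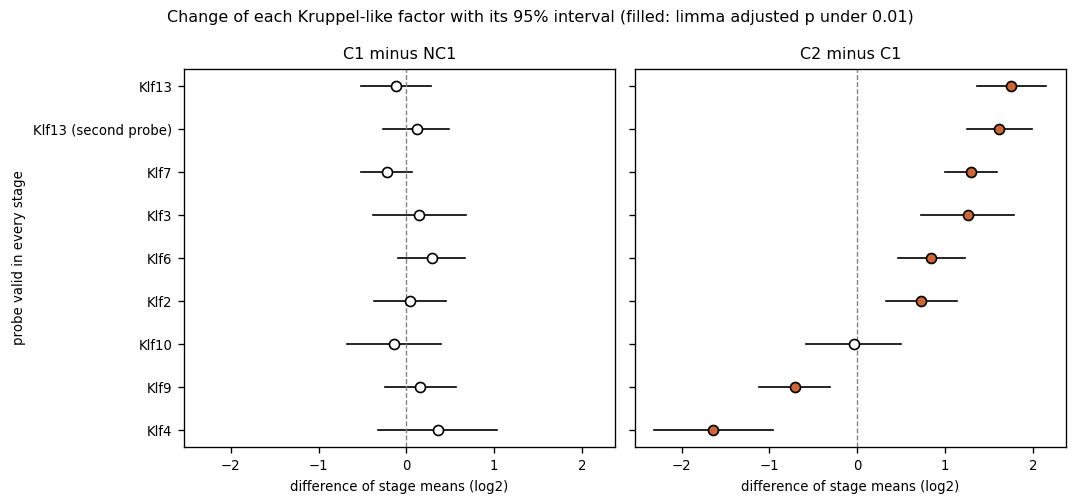
Difference of stage means (log2) for the 9 valid member probes with its 95% interval, for C1 minus NC1 on the left and C2 minus C1 on the right, with filled points for probes called at a limma adjusted p under 0.01. On the left every interval includes 0, while on the right the points run from -1.64 for Klf4 to 1.75 for Klf13.

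Promoter sequence is shown for the 4 members with the largest fitted change between C1 and C2, which leaves out Klf5 and Klf15, the highest being Klf13, Klf7 and Klf3 and the lowest being Klf4. Each is the 250 bases before the start of the gene in the RefSeq promoter table of build GRCm38.p6, at chr7:63938916-63939165 (minus strand) for Klf13, chr1:64121390-64121639 (minus strand) for Klf7, chr5:64803271-64803520 (plus strand) for Klf3 and chr4:55532476-55532725 (minus strand) for Klf4. Capitals mark CACCC and CCGCCC, the core letters to which KLF and SP proteins can bind, and TGACG, the core of the cAMP response element, each on either strand.
Klf13: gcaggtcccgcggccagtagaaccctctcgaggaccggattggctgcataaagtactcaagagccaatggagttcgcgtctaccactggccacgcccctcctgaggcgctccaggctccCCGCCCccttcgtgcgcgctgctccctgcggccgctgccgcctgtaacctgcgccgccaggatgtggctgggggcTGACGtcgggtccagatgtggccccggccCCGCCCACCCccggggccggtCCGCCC
Klf7: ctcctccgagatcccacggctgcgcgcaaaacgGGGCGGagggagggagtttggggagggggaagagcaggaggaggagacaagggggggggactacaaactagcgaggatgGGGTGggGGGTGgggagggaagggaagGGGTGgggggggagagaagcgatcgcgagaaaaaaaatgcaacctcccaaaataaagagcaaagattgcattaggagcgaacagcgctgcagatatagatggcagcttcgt
Klf3: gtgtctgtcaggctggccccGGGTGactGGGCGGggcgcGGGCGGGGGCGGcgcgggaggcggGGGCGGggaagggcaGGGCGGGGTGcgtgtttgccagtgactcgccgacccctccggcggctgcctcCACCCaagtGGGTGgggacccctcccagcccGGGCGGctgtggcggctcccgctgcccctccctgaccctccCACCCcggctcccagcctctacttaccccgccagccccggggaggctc
Klf4: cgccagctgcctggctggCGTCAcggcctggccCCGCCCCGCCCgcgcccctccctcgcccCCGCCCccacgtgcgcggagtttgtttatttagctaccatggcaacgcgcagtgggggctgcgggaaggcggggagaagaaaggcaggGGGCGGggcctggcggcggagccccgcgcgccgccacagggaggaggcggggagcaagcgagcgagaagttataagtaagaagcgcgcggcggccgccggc
A promoter was in the table for 8 of the 10 members (Klf5 and Klf10 had no entry). CACCC was present in 6 of these 8 windows, against 52% of all 32851 windows of this length. CCGCCC was present in 7 of 8, against 32.7%, and TGACG in 5 of 8, against 17.8%. The letters of CACCC and CCGCCC can overlap, as they do in the windows of Klf13 and Klf3. Member windows were rich in G and C, from 59.2% in Klf7 to 78.4% in Klf3, against a median of 52.4% over all windows. Klf3, with 6 copies of CCGCCC and 5 of CACCC, held the most, and Klf4 had 4 copies of CCGCCC and no CACCC. All 4 windows shown above held CCGCCC, that of the gene that fell included.

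Klf13, a GC-box binding repressor of the Sin3 group that is also known as a late activator of a chemokine gene in T cells, rose most among the 8 fitted members. Its first probe (A_55_P2022082) lay at -0.51, -0.36, -0.07, -0.18 and 0.05 in the 5 NC1 arrays and at -0.37, -0.99, -0.52, 0.24 and -0.02 in the 5 C1 arrays. In the 5 C2 arrays it lay at 1.18, 1.41, 1.37, 1.60 and 1.53. All C2 arrays were above all prophase I arrays. The C2 minus C1 difference was 1.75 ± 0.19 (SE), a 3.37-fold change, with a limma adjusted p of 5.78e-07. The second probe (A_55_P2244142) reads a cDNA which the deposited table describes as having an apparent retained intron. It lay at -0.82, -1.54, -1.01, -0.34 and -0.73 at C1 and at 0.63, 0.73, 0.67, 0.78 and 0.86 at C2, and the difference was 1.62 ± 0.18 (limma adjusted p = 7.08e-07). Both probes therefore rose with groups that did not overlap. Between NC1 and C1 they differed in sign, at -0.12 and 0.12, and neither was called.

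Klf7, of the activator group and best known from neurons and fat cells, had the narrowest error of all members. It lay at 1.41, 1.65, 1.43, 1.37 and 1.71 at NC1, at 1.06, 1.54, 1.20, 1.19 and 1.45 at C1 and at 2.17, 2.41, 2.75, 2.75 and 2.83 at C2. The C2 arrays stood clear of all others, and the rise from C1 was 1.29 ± 0.14 (SE), or 2.45-fold (limma adjusted p = 6.02e-07). Klf3, which represses through CtBP and restrains the maturation of fat and blood cells, lay at 1.03, 0.64, 0.59, 0.78 and 0.21 at C1 and at 1.01, 1.64, 2.28, 2.19 and 2.42 at C2. C2 replicate 1 was the lowest of its stage and fell just under C1 replicate 1, so the stages overlapped by a single array. The rise was nevertheless 1.26 ± 0.25, or 2.39-fold (limma adjusted p = 0.000375). NC1 values of Klf3 were 0.06, 1.00, 0.64, 0.16 and 0.66.

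Klf6 and Klf2, both of the activator group, rose by less than 2-fold. Klf6, an early-response factor known as a growth inhibitor, lay at 2.50, 2.63, 2.54, 2.77 and 2.46 at NC1, at 3.05, 3.00, 2.75, 2.84 and 2.69 at C1 and at 3.58, 3.20, 3.32, 4.17 and 4.28 at C2. C2 replicates 4 and 5 were the highest, and even the lowest C2 array exceeded every prophase I array. The difference between C2 and C1 was 0.84 ± 0.18 (SE), or 1.8-fold (limma adjusted p = 0.000719). Klf2, which keeps endothelial cells and lymphocytes quiescent, lay at 2.90, 3.06, 2.35, 3.62 and 2.68 at NC1, at 2.96, 2.92, 3.15, 2.88 and 2.91 at C1 and at 4.13, 3.68, 3.46, 3.40 and 3.83 at C2. C1 arrays were close together, NC1 arrays were spread so widely that NC1 replicate 4 lay among the C2 arrays, and C2 arrays were above all C1 arrays. The difference between C2 and C1 was 0.73 ± 0.19, or 1.66-fold (limma adjusted p = 0.00355). For Klf2 it was 0.63 with an adjusted p of 0.0115 without C2 replicate 1, 0.57 with an adjusted p of 0.0178 under quantile normalization, and 0.58 with an adjusted p of 0.131 under spike-in scaling.

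Klf4 and Klf9 moved the other way. Klf4, a pluripotency factor that also halts the cell cycle in epithelia, lay at 0.51, 0.68, -0.79, 0.44 and -0.42 at NC1 and at 0.63, 0.86, 1.24, -0.09 and -0.43 at C1. At C2 it lay at -0.91, -1.49, -1.51, -1.04 and -1.03. Every C2 array was below every other array, and both prophase I stages were spread over more than 1 log2 unit. The C2 minus C1 difference was -1.64 ± 0.32 (SE), a 3.11-fold decrease (limma adjusted p = 0.000318), and without C1 replicate 4 it was -1.77. Klf9, a repressor of the Sin3 group that responds to progesterone, thyroid hormone and glucocorticoids, lay at -0.78, -1.25, -1.16, -1.22 and -1.71 at C1 and at -2.47, -2.16, -1.71, -1.74 and -1.61 at C2, and its stages overlapped. The difference was -0.71 ± 0.19, or 1.64-fold (limma adjusted p = 0.00419). This call stood close to the threshold. With the slide as a block the difference was -0.67 (adjusted p = 0.0101), and with the replicate number as a block it was -0.71 (adjusted p = 0.0125). It was -0.87 under spike-in scaling (adjusted p = 0.0104) and shrank to -0.40 with the deposited table (adjusted p = 0.137). The adjusted p was 0.0141 without C1 replicate 1, 0.0127 without C2 replicate 1 and 0.0129 without C2 replicate 2.

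Klf10, a TGF-beta inducible repressor of the Sin3 group, was the member with no called difference. It lay at -0.64, -0.28, -0.10, -0.39 and 0.19 at NC1, at 0.37, -1.17, -0.62, 0.00 and -0.50 at C1 and at -0.28, -0.25, -0.53, -1.03 and -0.03 at C2. The 3 stages overlapped, with the widest spread at C1 (SD 0.59, against 0.31 at NC1 and 0.38 at C2), and the C2 minus C1 difference was -0.04 with a 95% interval of -0.58 to 0.50. The sign of that difference turned with the scaling, being 0.27 with the deposited table. The moderated F-test over the 3 stages gave an adjusted p of 0.793 for Klf10, and of 0.00901 or lower for the other 7 valid members. By that F-test 7 of 8 were called, where 51.6% of all valid probes were called.

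**Figure D2:**
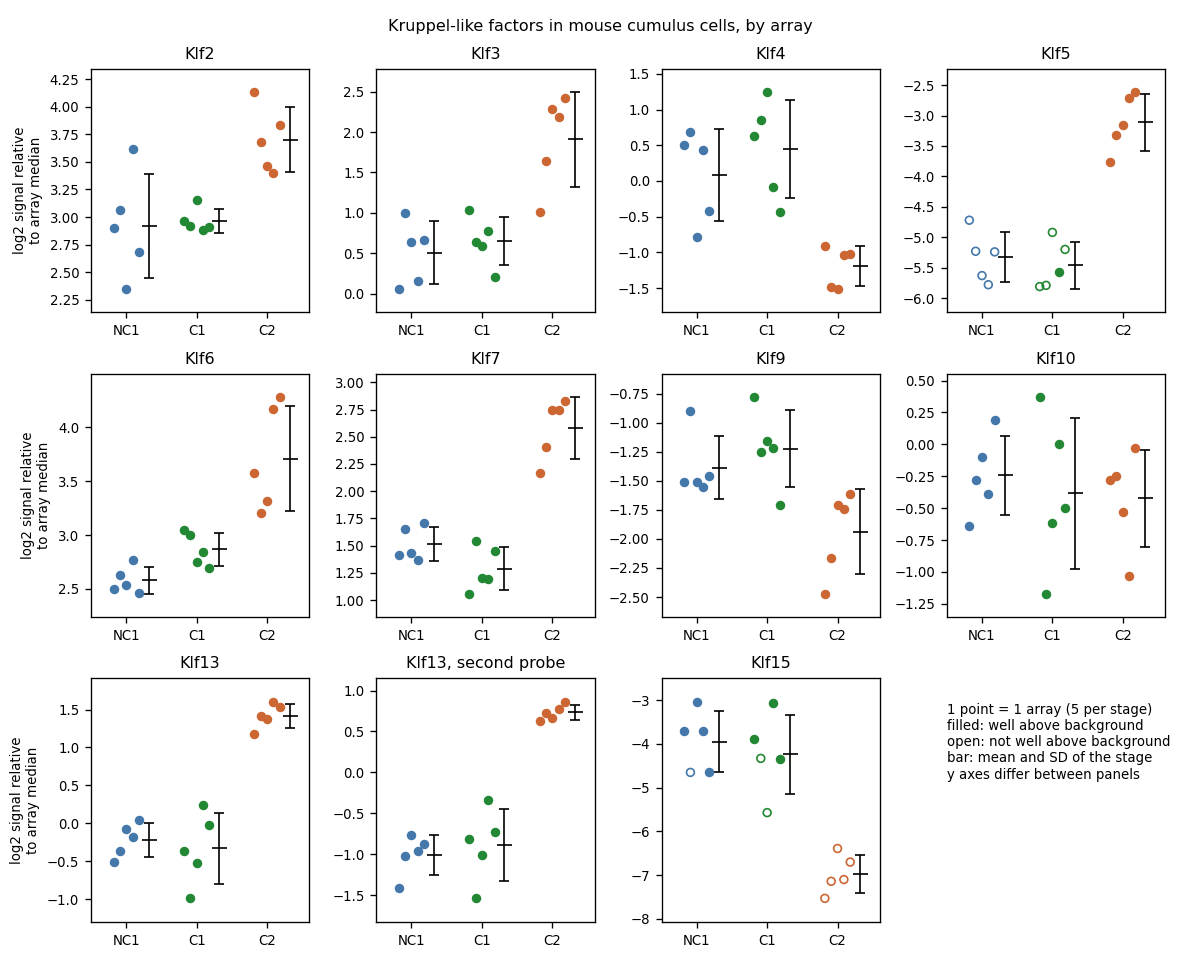
Log2 signal relative to the array median for each of the 11 member probes in the 15 arrays, by stage (x axis), with filled points for arrays well above background, open points for the others, and the mean and SD of each stage as a bar. Klf13, Klf7, Klf6 and Klf5 sit higher in all 5 C2 arrays than in all 10 prophase I arrays, Klf4 and Klf15 sit lower, and the 3 stages of Klf10 overlap.

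Klf5 and Klf15 were well above background in only part of the arrays. Klf5, an activator that promotes growth in epithelia and smooth muscle, was well above background in 0 of 5 NC1 arrays, 1 of 5 C1 arrays and 5 of 5 C2 arrays. The C2 values were -3.77, -3.32, -3.15, -2.71 and -2.62, whereas NC1 values were -4.72, -5.23, -5.63, -5.78 and -5.24 and C1 values were -5.81, -5.79, -4.92, -5.57 and -5.20. The single C1 array was replicate 4, although its Klf5 signal of -5.57 was not the highest of that stage. The lower bound of expression at C2 over NC1 was 3.05-fold, from stage means of -3.12 and -5.32, and it was 1.97-fold with another background correction. Of all gene probes, 0.73% were well above background in all C2 arrays and in no NC1 array. By the looser criterion of a positive and significant signal, Klf5 was detected in all 15 arrays. Klf15, a glucocorticoid-induced regulator of amino acid and glucose metabolism, went the opposite way. It was well above background in 4 of 5 NC1 arrays, 3 of 5 C1 arrays and 0 of 5 C2 arrays. It lay at -3.71, -4.65, -3.04, -3.70 and -4.65 at NC1, at -3.88, -4.33, -5.57, -3.06 and -4.35 at C1 and at -7.53, -7.14, -6.39, -7.10 and -6.70 at C2, so that the stages C1 and C2 did not overlap. The stage means were -3.95, -4.24 and -6.97. With each C2 array raised to at least its lowest signal well above background, Klf15 was 1.79-fold higher at NC1 and 1.47-fold higher at C1. These values are not strict lower bounds, as only 4 of 5 NC1 arrays and 3 of 5 C1 arrays were well above background. The looser criterion also found Klf15 in no C2 array.

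Over the whole span from NC1 to C2, which shares its arrays with both other comparisons, 6 of the 8 valid members were called, where 51.5% of all valid probes were called, 26.5% higher and 24.9% lower. Klf13 rose by 1.63, Klf3 by 1.41, Klf6 by 1.13, Klf7 by 1.07 and Klf2 by 0.78, and Klf4 fell by 1.28. Klf9 was lower by the values, with a difference of -0.55 ± 0.19 (SE) that missed the threshold (limma adjusted p = 0.0192), although its stages did not overlap. Stages did not overlap for 6 of the 8 members, where 48.9% of all valid probes did not overlap. By group, the 4 valid members of the activator group were called in both comparisons with C2, 3 of them higher. Of the 3 valid members of the Sin3 group, 2 were called between C1 and C2, 1 in each direction, and 1 between NC1 and C2, which was higher. Klf11 and Klf16 are also of the Sin3 group but not among the members. They were valid and were called in neither comparison with C2. These groups are small, and 47.6% of all valid probes were called between C1 and C2. Klf2 of the activator group was lost in both comparisons under spike-in scaling and under quantile normalization.

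The arrays lay on 4 slides, each with all 3 stages, and the changes were also taken within each slide. The C2 minus C1 difference of Klf13 was 1.27 to 2.22 over the 4 slides, that of Klf7 was 0.97 to 1.52 and that of Klf3 was 0.43 to 2.07. It was 0.63 to 1.26 for Klf6, 0.55 to 0.98 for Klf2 and -2.14 to -1.09 for Klf4, so each kept its sign on 4 of 4 slides. Klf9 ranged from -1.31 to 0.00 and Klf10 from -0.64 to 0.37. For members not fitted, the range of the signal was 1.14 to 3.18 for Klf5 and -4.06 to -1.97 for Klf15. With the slide as a block, 6 members were called between C1 and C2, the exception being Klf9, and 0 were called between NC1 and C1. Under the same fit 7758 and 338 of the 17323 valid probes were called.

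Members also varied between pools of a stage, and they did not vary as 1 group. After the stage means were removed, the 28 pairs of the 8 members had Pearson correlations from -0.68 to 0.90 over the 15 arrays, with a median of 0.10 and 16 pairs above 0. These correlations are descriptions over arrays that share their scaling and slides. Klf3 and Klf9, which changed in opposite directions between C1 and C2, varied most alike (r = 0.90). Klf2 and Klf4 varied together as well (r = 0.60), while Klf4 and Klf13 varied oppositely (r = -0.68). The 2 probes of Klf13 had a correlation of 0.94.

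**Figure D3:**
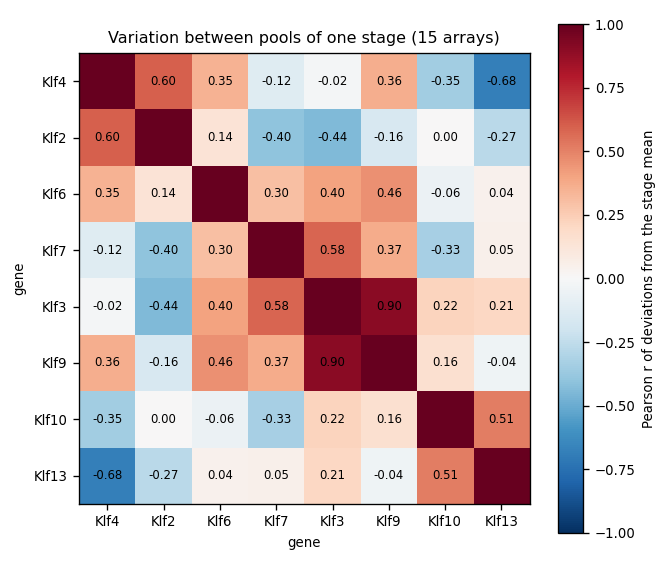
Pearson correlation between members of their deviations from the stage mean over 15 arrays, with genes on both axes and the colour scale from -1 to 1. The highest value is 0.90 for Klf3 with Klf9 and the lowest is -0.68 for Klf4 with Klf13, and no block joins all 8 members.

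Immediate early genes, which cells induce within minutes of a stimulus and to which Klf2, Klf4, Klf6 and Klf10 are often counted, were examined beside the members. Of 23 such genes on the array, 19 were valid, and between C1 and C2 a total of 7 were called higher and 5 lower. For this and the lists that follow, the shares over all valid probes were 25.4% higher and 22.2% lower between C1 and C2, and 1.75% and 0.768% between NC1 and C1. Ier3 was higher by 4.26, Egr2 by 3.79, Nr4a2 by 1.80 and Fosl2 by 1.76, while Hspa1a was lower with a difference of -2.07 and Atf3 with -1.85. Between NC1 and C1, 2 were called higher, Atf3 (1.83) and Dusp1 (1.26). Within stages, the mean of the 19 valid genes varied with Klf2 (r = 0.76) and Klf4 (r = 0.68), against 0.16 for Klf6 and 0.28 for Klf10. NC1 replicate 3, the lowest array of its stage for Klf2 (2.35) and Klf4 (-0.79), was also the lowest of its stage in the summed level of these genes. The part of these genes in the spread of Klf2 and Klf4 was not tested.

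Of 11 glucocorticoid receptor targets, all valid, 5 were called higher and 3 lower at C2 than at C1, and 4 were called higher and none lower at C1 than at NC1. Sgk1 rose by 2.57 between NC1 and C1 and by a further 2.90 between C1 and C2, and Mt2 rose by 2.46 at the first step. Errfi1 rose by 2.02 and Fkbp5 by 1.48 at the second step, at which Cdkn1c (-1.77) and Zbtb16 (-1.31) fell. Klf9 and Klf15, which glucocorticoids induce in other tissues, were lower at C2 than at C1 by the values above. Among 19 factors placed upstream of KLF transcription, 15 were valid, of which 3 were called higher and 2 lower at C2 than at C1. The TGF-beta receptor gene Tgfbr1 rose by 1.91, Mef2d, a target of the ERK5 kinase, by 1.72 and the serum response factor gene Srf by 0.78. Mef2c, which was not valid, went the other way. It was well above background in 5 of 5 C1 arrays (mean -2.49) and 0 of 5 C2 arrays (mean -5.31). Foxo1 fell by 1.78 and the progesterone-binding membrane protein gene Pgrmc1 fell by 0.43. Between NC1 and C1 none of the 15 was called, where 2.52% of all valid probes were called.

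Partners of the KLFs were examined next. Of 16 genes for corepressors, acetyltransferases and ubiquitin ligases, 13 were valid, and 7 were called higher and 0 lower at C2 than at C1, with a median difference of 0.40. Kat2b, an acetyltransferase, rose by 1.49, and the ubiquitin ligase genes Smurf1 and Fbxw7 rose by 1.44 and 0.63. The Sin3 scaffold gene Sin3b rose by 0.49, the deacetylase gene Hdac1 by 0.46 and the corepressor gene Ctbp1 by 0.40. Of 16 other KLF and SP genes on the array, 6 were valid. Sp1 (0.85) and Sp2 (0.48), general GC-box binding factors, were called higher at C2 than at C1, and the other 4 were not called. Those 4 included every valid KLF gene outside the members. These were Klf8 (0.12, limma adjusted p = 0.613), Klf11 (0.11, limma adjusted p = 0.522) and Klf16 (0.48, limma adjusted p = 0.0131). Sp4 (-0.18, limma adjusted p = 0.221) was not called either.

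Genes reported elsewhere as regulated by KLFs gave a mixed picture. Of 29 on the array, 23 were valid, with 6 called higher and 1 lower at C1 than at NC1, and 7 called higher and 5 lower at C2 than at C1. Cyp11a1, the side-chain cleavage enzyme that starts steroid synthesis, rose by 5.46 at the first step, at which no member was called. At the second step Lgals3, which encodes galectin 3, rose by 4.52. The cyclin-dependent kinase inhibitor genes Cdkn1a and Cdkn1b rose by 3.45 and 2.24, while Cdkn1c fell by 1.77. Tgfb1 rose by 2.26, and Ccne1, which encodes cyclin E1, fell by 2.37. The members are not shown to act on any of these genes here. Over the valid genes of each list, the median C2 minus C1 difference was 0.46 for these genes, 0.39 for immediate early genes, 0.56 for glucocorticoid receptor targets, 0.24 for upstream factors and 0.30 for other KLF and SP genes, against 0.02 over all valid probes.

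Markers of other cell types moved between C1 and C2 as well, and levels are given as the log2 of the summed signal of each list. The 10 endothelial markers lay at 2.65 to 3.14 at C1 and 0.88 to 1.43 at C2, with 3 of them above background in no C2 array. Only 4 of them were valid, of which Egfl7 and Esam were called lower at C2, Cdh5 was called higher and Kdr was not called. The 8 theca and stroma markers lay at 3.64 to 4.25 at C1 and -0.20 to 0.22 at C2. The 7 leukocyte markers lay at 0.31 to 1.01 at C1 and 1.96 to 2.45 at C2. Only 4 of them were valid, of which Cd52 was called higher at C2 (3.01) and the other 3 were not called. The 9 oviduct epithelium markers lay at 2.92 to 3.68 at C1 and 4.65 to 4.93 at C2. Of these 9, Pax8 was above background in no array, Epcam, Krt19 and Tppp3 were called lower at C2, and Krt8 and Krt18 were called higher. Ovgp1 and Cdh1 were not called, with C2 minus C1 differences of 2.28 (limma adjusted p = 0.0343) and 0.05. Between NC1 and C2, 3 oviduct markers were called higher, Ovgp1 (3.32) among them, and 1 was called lower. Of the 13 cumulus and granulosa markers 12 were called lower at C2 than at C1, with a median difference of -2.78 over the 13. The 10 oocyte markers lay at 3.63 to 5.29 at C1 and -0.61 to 4.09 at C2, and the 6 red blood cell markers at 3.39 to 5.44 and 3.31 to 4.66. At NC1 the red blood cell list lay higher, at 6.20 to 8.78. Within stages Klf3 varied oppositely to the mean of the 4 valid leukocyte markers (r = -0.83) and Klf6 oppositely to the 3 valid oocyte markers (r = -0.74). These were picked as the largest in size among the correlations of the valid members with the marker lists. Next were Klf9 with the leukocyte markers (r = -0.69) and Klf4 with the oviduct epithelium markers (r = 0.65). The value for Klf6 rested mainly on C2. There Klf6 deviated by 0.46 and 0.57 in replicates 4 and 5, and the oocyte mean by -2.19 and -2.01. At C1 both were high in replicate 1 (0.18 and 0.96) and low in replicate 5 (-0.17 and -0.83). The part of other cell types in the changes of the members was not tested.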

How the data were processed

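RNA of 15 pools of mouse cumulus cells was labelled with Cy3 and hybridized to Agilent oligonucleotide arrays. Scanner files deposited by the authors hold a linear intensity for every spot, with background subtracted and no scaling between arrays. They were made with Agilent Feature Extraction, for which the headers name version 10.7.1.1 and the submitters' processing notes 10.5.1.1. A deposited table of log2 values, scaled between arrays, was used to choose the members and otherwise as an alternative. The study's Methods scaled each array by its median.

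From the intensity values, outlier spots and control spots were left out, spots of a probe were averaged, log2 was taken, and the median of the valid probes of the array was subtracted. The limma model (version 3.58.1, R 4.3.3) held 1 mean per stage, all tests were two-sided, and p-values were adjusted over all 17323 valid probes. It was tested on simulated data. Probes were named by RefSeq accession (26055) or by the deposited table alone (2770), and 10604 stayed unnamed. For a gene with several valid probes the one with the highest mean over the 15 arrays was used. All members were named, and of each other list called genes by the size of change, in most lists up to 6. Some genes that were not called or not valid were named beside them, and the rest were given as counts. The members and lists were chosen with earlier results of these data known. Motif letters were searched in RefSeq promoters, with 250 bases before each start. A probe not well above background in a stage was given a lower bound. In it each dim array was set to the higher of its lowest signal well above background and the signal of the probe. It can be read as a bound only where all 5 arrays of the brighter stage were well above background, which held for Klf5 and not for Klf15. For Klf5 it also depended on the background correction, being 3.05-fold or 1.97-fold. On arrays the number of arrays and the signal over background limit the precision. Per the study's Methods the pools of a stage came from separate groups of mice.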

Additional observations from a re-analysis of the deposited data

Results flagged for a closer look

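In 2 of the 31 stages of 5 arrays examined over the member probes, 1 array lay far from the others by Dixon's criterion, which chance meets in about 1 group in 20. Klf2 in C1 replicate 3 lay at 3.15, above the other C1 arrays, and without that array the C2 minus C1 difference of Klf2 was 0.78 in place of 0.73. Klf9 in NC1 replicate 2 lay at -0.90, above the other NC1 arrays.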

How the results depend on the processing

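The directions of the called members held under every alternative tried, and none reversed. The count of members called between C1 and C2 was 7 and moved to 4 under spike-in scaling and to 4 when a change of at least 2-fold was required. It was 5 to 7 when each array was left out in turn, 6 to 6 for C2 against NC1, 5 to 7 for the F-test and 0 to 0 for C1 against NC1. Over the whole table, 437 probes were called for C1 against NC1, which became 271 with the median over all gene probes, 272 with spike-in scaling, 272 with the deposited table, 282 with the 2-fold minimum and 872 at an adjusted p under 0.05. For C2 against C1 the count of 8253 became 4392 with spike-in scaling and 3696 with the 2-fold minimum. For C2 against NC1 the count of 8916 became 5143 and 4284, and for any stage difference the count of 8931 became 5115 and 4627. The median C2 minus C1 difference over the valid probes was 0.02, and it became 0.33 when arrays were scaled by the median over all gene probes and -0.13 with spike-in scaling. Replicate numbers did not pair the samples across all 3 stages. Arrays of the same number had correlations of -0.242 to 0.348 over 15 pairs, and 5 of 15 arrays correlated best with their own number. The pairs between NC1 and C1 were all positive, at 0.056 to 0.348. Those between NC1 and C2 ran from -0.242 to 0.002, and those between C1 and C2 from -0.170 to 0.213. With the replicate block, 6 members and 8059 probes were called between C1 and C2, 0 members and 404 probes between NC1 and C1, and 6 members and 8767 probes between NC1 and C2. The normexp alternative, chosen after seeing the data because the planned mean-signal column was not in the files, used the median signal and background of each spot and gave 7 members between C1 and C2. Under it the lower bound of Klf5 at C2 over NC1 was 0.98 on the log2 scale in place of 1.61.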
